A study of Mus musculus with 10 samples.

Results

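The MYC network genes examined here are Myc, Mycn, Mycl1, Max, Mxi1, Mnt and Mga, 7 genes chosen by symbol from the 22713 gene IDs of the deposited mRNA tables. Each symbol matched 1 ID in both tables, and all 7 passed the filter on low values in each table, which 13449 and 13407 genes passed. They were followed over 8 mRNA-sequencing libraries and 1 pair of ChIP-sequencing libraries of mouse embryonic stem (ES) cells. Pontinf/f; CreER ES cells, which carry floxed Pontin alleles and a Cre recombinase that 4-hydroxy tamoxifen (OHT) activates, were sequenced untreated (WT), at 3 days after OHT (OHT 3D) and at 4 days after OHT (OHT 4D), with 1 library each. ZHBTc4 ES cells, in which tetracycline (Tc) shuts off Oct4, gave 1 library at 2 days after Tc (Tc 2D). The same ZHBTc4 line without Tc, infected for 4 days with a pLKO lentivirus, gave 2 control shRNA libraries and 2 libraries with knockdown of the lincRNA linc1253. Untreated ZHBTc4 cells gave the Pontin ChIP library and the GFP ChIP library that serves as its control. The sources do not say whether each line was 1 clone or whether the shRNA replicates were separate cultures, so their p-values measure the spread between these libraries alone. The cells without Tc had Pou5f1, a defining marker of ES cells, with a CPM (read counts scaled to a common library size) between 296 at OHT 3D and 708 in linc1253 replicate 1. Zfp42, another pluripotency marker, differed between these cells. It had 61.4 to 64.1 CPM in WT and the OHT libraries and 914 to 1330 in the ZHBTc4 shRNA libraries. The line, the lentiviral infection and the table of deposited values differ together between these libraries.

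MYC proteins are basic helix-loop-helix leucine zipper transcription factors that bind E-box DNA as dimers with MAX and drive ribosome biogenesis, metabolism and cell cycle entry. ES cells rely on Mycn and Myc for growth and self-renewal. MAX also pairs with MXI1 and MNT, which recruit Sin3 histone deacetylase complexes to the same sites, and with MGA, which carries a T-box domain as well and belongs to a variant Polycomb complex that silences germ cell genes in ES cells. Pontin (Ruvbl1) is an AAA+ ATPase of the TIP60 and INO80 chromatin complexes that was described as a MYC cofactor, which is why these genes are followed in cells that lack it.

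In the NCBIM37 genome, the build of the deposited files, Myc (ENSMUSG00000022346) lies at chr15:61816946-61821929, Mycl1 (ENSMUSG00000028654) at chr4:122672895-122679728, Mxi1 (ENSMUSG00000025025) at chr19:53384996-53450300, Mnt (ENSMUSG00000000282) at chr11:74644422-74659227 and Mga (ENSMUSG00000033943) at chr2:119722964-119795317, all on the plus strand. Mycn (ENSMUSG00000037169) lies at chr12:12942902-12948720 and Max (ENSMUSG00000059436) at chr12:78038256-78063235, both on the minus strand. All 7 are protein-coding genes. Mxi1 is the 1 member that overlaps another annotated gene, Gm10197, on the opposite strand.

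The E-box CACGTG, the preferred site of MYC-MAX, reads the same on both strands. In a window of 2.5 kb before and 500 b after the start site it was present in 2 of the 7 members, Max and Mnt, and in 34.4% of the windows of 22367 protein-coding genes. In the 250 bases before the start site it was present in Mnt alone, against 6.52% of all genes. The promoters of Mycn and Mnt, where Pontin ChIP reads stood highest near the start site, and of Myc, whose mRNA differed most at OHT 3D, are shown as the 250 bases that end just before the start site, 5′ to 3′ on the strand of the gene, taken from chr12:12948721-12948970 (minus strand) for Mycn, chr11:74644172-74644421 for Mnt and chr15:61816696-61816945 for Myc. Capitals mark the E-box.
Mycn: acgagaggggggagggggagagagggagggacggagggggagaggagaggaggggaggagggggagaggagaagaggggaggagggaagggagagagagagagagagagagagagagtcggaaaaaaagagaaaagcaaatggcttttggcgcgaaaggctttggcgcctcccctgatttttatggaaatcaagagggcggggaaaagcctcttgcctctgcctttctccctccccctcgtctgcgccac
Mnt: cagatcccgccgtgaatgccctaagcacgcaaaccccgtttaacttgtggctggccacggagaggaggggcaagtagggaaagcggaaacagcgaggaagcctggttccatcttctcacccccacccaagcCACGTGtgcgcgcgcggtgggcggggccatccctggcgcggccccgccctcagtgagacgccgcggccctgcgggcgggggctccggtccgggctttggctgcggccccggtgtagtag
Myc: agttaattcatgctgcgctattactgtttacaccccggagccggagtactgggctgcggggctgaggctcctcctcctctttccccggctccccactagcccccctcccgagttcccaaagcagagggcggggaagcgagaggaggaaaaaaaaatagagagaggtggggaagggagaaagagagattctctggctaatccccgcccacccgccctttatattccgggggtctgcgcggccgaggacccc
Max holds an E-box that spans its start site and another 278 bases upstream of it, shown with 9 bases on either side.
Max at the start site: gagcccggtCACGTGttagggggc
Max upstream: agctccctcCACGTGtcctgtctt
The 250 bases had a GC content of 59.2% in Mycn, 69.2% in Mnt and 60.4% in Myc, all above the median of 54% over all genes.

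The deposited values are CPM, scaled by the trimmed mean of M-values (TMM) in 2 tables, one with WT, OHT 3D, OHT 4D and Tc 2D and the other with the 4 shRNA libraries. Each value was a whole number of reads times 1 step per library, so the reads could be recovered. They came to between 17187595 and 18120429 reads on genes per library in the first table and between 21245831 and 37951742 in the second. Levels are compared between genes as CPM per kb of exon.

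Mycn was the most abundant MYC gene in every library, and Mycl1 was the lowest of the 7 members in every library. In WT, CPM per kb was 51.5 for Mycn, 7.29 for Myc and 5.29 for Mycl1. Max, the obligate partner, had 47.0, close to Mycn. Among the MAX partners that oppose MYC, Mga had 13.3, Mnt 11.5 and Mxi1 6.13 CPM per kb. In the control shRNA libraries of ZHBTc4 the order was Max, Mycn, Mga, Myc, Mnt, Mxi1 and Mycl1 in both replicates. No pair of neighbours overlapped between the replicates. Max had 50.4 and 51.5 next to 45.9 and 49.4 for Mycn, and Myc had 9.81 and 13.7 next to 9.69 and 8.78 for Mnt.

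**Figure D1:**
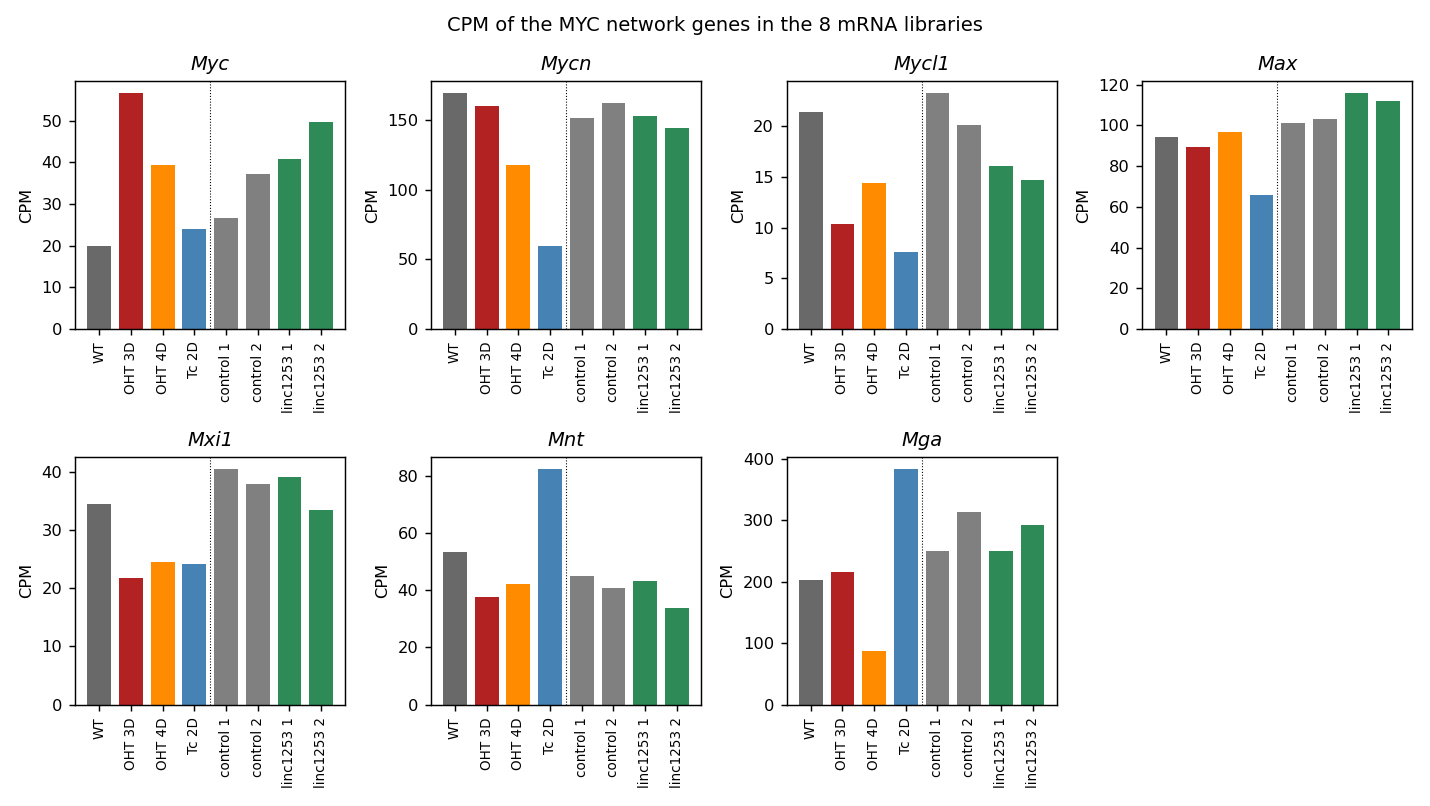
CPM (vertical axes, from 0) of each MYC network gene in the 8 mRNA libraries, 1 bar per library, with a dotted line between the tables that were normalized separately. Myc is highest at OHT 3D with 56.6, Mycn is lowest at Tc 2D with 59.8, and Mga is lowest at OHT 4D with 86.7 and highest at Tc 2D with 384.

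The first comparison sets the OHT libraries, in which Pontin is removed, against WT. No library came from OHT-treated cells with intact Pontin, or from untreated cells kept for 3 or 4 days. OHT, active Cre, days in culture and loss of Pontin thus differ together from WT and cannot be told apart. The mRNA of Pontin itself, listed as Ruvbl1, went from 198 CPM (WT) to 33.3 (OHT 3D) and 50.9 (OHT 4D). The threshold of the study was used for calls, a log2-fold-change beyond 0.58 in either direction, with 1 added to each CPM. Each time point is a single library, so replicate error is unknown here, and the 95% intervals given cover the counting of reads only. At OHT 3D, 1 of the 7 members was called higher, where 6.01% of all tested genes were, and 2 were called lower, where 5.88% were. At OHT 4D, 1 member was called higher against 6.48% of all genes, and 1 was called lower against 8.89%. With so few members a single call already exceeds these shares, so the counts themselves are read no further.

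Myc was the member called higher at both time points. It had 19.8 CPM (443 reads) in the WT library, 56.6 CPM (1252 reads) in the OHT 3D library and 39.4 CPM (900 reads) in the OHT 4D library. The log2-fold-change over WT was 1.47 (1.32 to 1.62) at OHT 3D, higher than that of 99.2% of the tested genes, and 0.96 (0.80 to 1.12) at OHT 4D, higher than that of 97.4%. Both OHT libraries share the WT library, so the values are not independent of each other.

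Mycn, the main MYC gene of these cells, had 169.5 CPM (WT), 159.8 (OHT 3D) and 118 (OHT 4D). Neither change was called, with log2-fold-changes of -0.08 (-0.15 to -0.02) and -0.52 (-0.60 to -0.45). By quantitative RT-PCR, the study reported Mycn as an Oct4 target that Pontin did not affect. Mycl1 had 21.4, 10.3 and 14.4 CPM in the same order. Its log2-fold-change of -0.98 (-1.19 to -0.77) was called lower at OHT 3D, and that of -0.54 (-0.73 to -0.35) at OHT 4D was not. The 3 MYC genes thus differed in the same OHT 3D library, with Myc higher, Mycl1 lower and Mycn nearest to WT.

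Max was close to WT, with a CPM of 94.3, 89.6 and 96.8 and log2-fold-changes of -0.07 (-0.16 to 0.01) and 0.04 (-0.05 to 0.12). The partners that oppose MYC were lower or near WT. Mxi1 had a CPM of 34.5, 21.7 and 24.6 and was called lower at OHT 3D, with a log2-fold-change of -0.64 (-0.80 to -0.48), but not at OHT 4D, with -0.47 (-0.62 to -0.32). Mnt, with a CPM of 53.2, 37.6 and 42.1, passed the threshold at neither time point, with -0.49 and -0.33.

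Mga was at 203 CPM (WT), 216 (OHT 3D) and 86.7 (OHT 4D). Its change was 0.08 on the log2 scale after 3 days (0.03 to 0.14), not called, and -1.22 after 4 days (-1.30 to -1.15), called lower. Between the OHT libraries Mga was lower by a log2-fold-change of -1.31 at OHT 4D, the 1 member called lower there, against 8.84% of all tested genes. Mga has 15340 bases of exon, the longest of the members, and long genes as a class were lower at OHT 4D. Of the genes averaging 5 CPM or more, 106 had over 15000 bases of exon, and their median log2-fold-change was -0.64 at OHT 4D, where 56.6% of them were called lower, and 0.09 at OHT 3D. Against that median, Mga was lower by 0.58 on the log2 scale, which is just under the threshold. The medians of the classes that hold the other members lay between -0.10 and 0.06 at OHT 4D. The part of transcript length in the value of Mga was not tested.

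**Figure D2:**
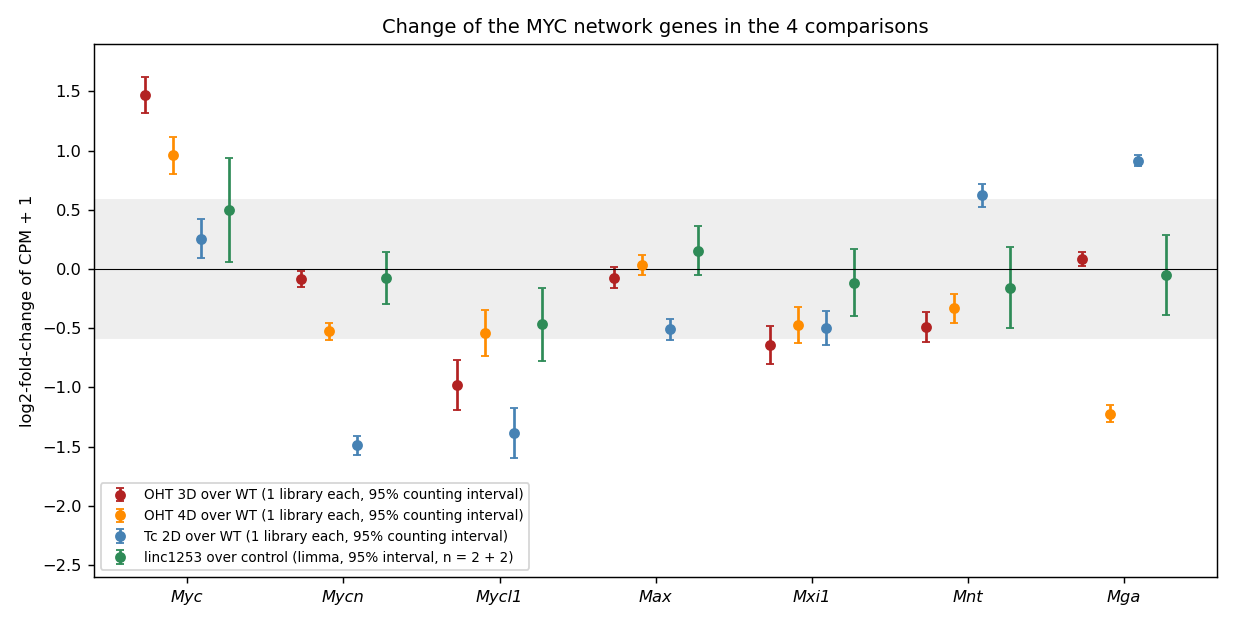
Log2-fold-change of CPM plus 1 (vertical axis) of each member over WT at OHT 3D, OHT 4D and Tc 2D (1 library on each side, 95% counting intervals) and in linc1253 knockdown over control shRNA (limma, 95% intervals from 2 libraries on each side), with the range inside the threshold of 0.58 shaded. Myc stands above the shaded range at both OHT time points, at 1.47 and 0.96, and Mycn and Mycl1 below it at Tc 2D, at -1.49 and -1.38.

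The make-up of the MYC genes differed between these libraries. Of the summed CPM per kb of Myc, Mycn and Mycl1, Myc held 11.4% in WT (95% counting interval 10.4 to 12.4), 29.0% at OHT 3D (27.7 to 30.3) and 27.0% at OHT 4D (25.5 to 28.5). Mycn stood at 7.06, 2.33 and 2.46 times the level of Myc in the same libraries. The sum itself was 64.1 CPM per kb (WT), 72.0 (OHT 3D) and 53.8 (OHT 4D).

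Markers of another cell type were higher in the same libraries in which Myc was higher. The 16 fibroblast genes set as markers summed to 55.8 CPM (WT), 386 (OHT 3D) and 499 (OHT 4D), and all 14 that passed the filter were called higher at both time points, against 6.01% and 6.48% of all genes. The marker lists were set with earlier results of these data known. Timp2, 1 of the 16, was reported by the study as higher without Pontin. The filter kept genes above 1 CPM in any library of the table. Col3a1 (0.58 CPM in WT) and Postn (0.49) passed it only through the OHT libraries. Sox17, a primitive endoderm marker, passed only through OHT 4D, at 1.62 CPM. The counts of markers called are thus in part fixed by the filter, and they are a description. Acta2, smooth muscle actin, had a CPM of 5.90, 94.6 and 112, and Col1a1, a fibrillar collagen, had 4.20, 46.5 and 64.6. Of 2 defining fibroblast markers, Lum was listed at 0 both in WT and after 3 days and reached 0.09 CPM after 4 days. Dcn rose but stayed below 1 CPM, at 0.13 (WT), 0.50 (OHT 3D) and 0.83 (OHT 4D). The study grew its ES cells with or without feeder cells, which were mouse embryonic fibroblasts. It does not say which way was used for these libraries. In bulk libraries more cells of a type and more RNA per cell cannot be told apart, and the part of such cells in the value of Myc was not tested. Trophectoderm markers summed to 55.8, 133 and 303 CPM and primitive endoderm markers to 243, 327 and 369 CPM in the same libraries, and pluripotency markers to 3680, 3491 and 3804 CPM. At OHT 4D the keratins Krt8 and Krt18 made up 155 and 110.2 CPM of the trophectoderm sum, and Cdx2 reached 1.01 CPM. Of the 8 trophectoderm markers that passed the filter, 5 were called higher and 1 lower at OHT 3D, and 6 higher and 0 lower at OHT 4D. Of 9 primitive endoderm markers, 4 and 7 were called higher and 0 lower. The shares of all genes called higher were 6.01% and 6.48%.

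**Figure D3:**
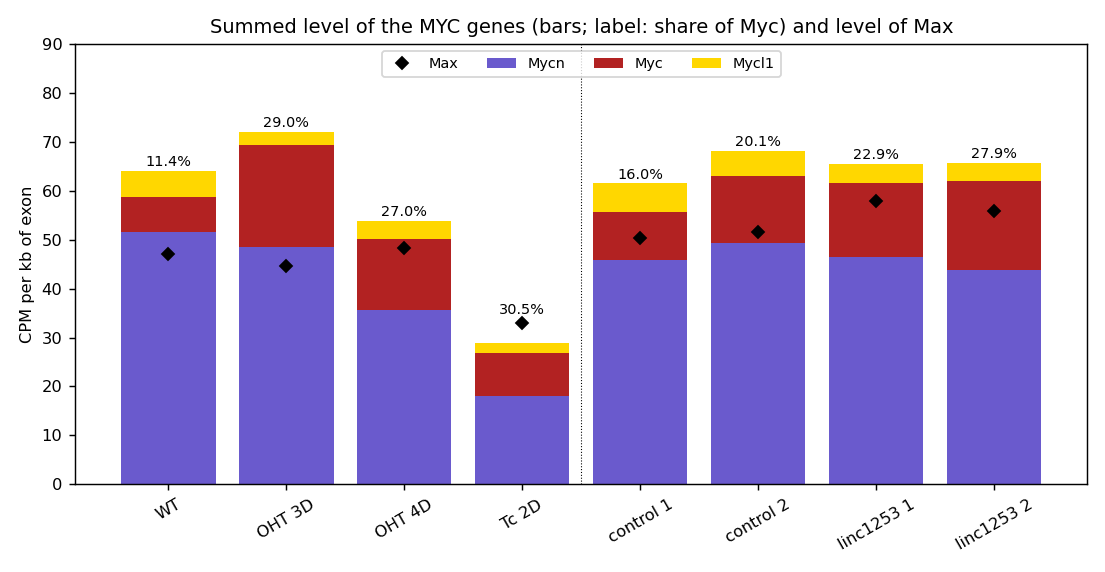
Summed CPM per kb of exon (vertical axis) of Mycn, Myc and Mycl1 as stacked bars in the 8 libraries, with the share of Myc printed above each bar and the level of Max as a diamond. The share of Myc is 11.4% in WT and between 27.0% and 30.5% at OHT 3D, OHT 4D and Tc 2D, and the bar is shortest at Tc 2D, at 28.8.

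The next comparison asks how the network changes when Oct4 is lost. Pou5f1, which encodes Oct4, went from 301 CPM (WT) to 21.1 CPM (Tc 2D). The control of the study was kept. It is the WT library, which is of the other ES line, so the line and the depletion cannot be told apart. Of the 7 members, 2 were called higher, against 23.9% of all tested genes, and 2 were called lower, against 25.8%. Each of these shares of members is near the background.

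Mycn and Mycl1 were the members called lower. Mycn fell from 169.5 to 59.8 CPM, a log2-fold-change of -1.49 (-1.57 to -1.41), and Mycl1 from 21.4 to 7.58 CPM, a log2-fold-change of -1.38 (-1.59 to -1.17). Both were also called lower against the ZHBTc4 control shRNA libraries, at a mean CPM of 157 and 21.7, with -1.38 and -1.40. Those libraries are of the same line but were infected with lentivirus and normalized in the other table. Of all genes tested in that way, 17.9% were called higher and 30.1% lower.

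Myc did not pass the threshold at Tc 2D, and its direction depended on the control. It had a CPM of 23.9 at Tc 2D against 19.8 in WT, a log2-fold-change of 0.26 (0.09 to 0.42), and against a mean of 31.9 in the ZHBTc4 control libraries, a log2-fold-change of -0.39. With Mycn lower, Myc held 30.5% (28.7 to 32.4) of the summed MYC level per kb at Tc 2D, and that sum was 28.8 CPM per kb, the lowest of the 8 libraries. Max had a CPM of 65.9, with log2-fold-changes of -0.51 over WT and -0.62 over the ZHBTc4 controls, the latter past the threshold. The summed MYC level was 1.36 times that of Max in WT and 0.88 times at Tc 2D.

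The partners that oppose MYC moved apart from one another at Tc 2D. Mnt rose from a CPM of 53.2 to 82.5, a log2-fold-change of 0.62 (0.52 to 0.72), and of 0.93 over the ZHBTc4 controls. Mga rose from 203 to 384, a log2-fold-change of 0.92 (0.87 to 0.96), but over the ZHBTc4 controls, at a mean of 282, it was 0.46 and not called. With all 8 libraries on 1 median-ratio scale, Mga was called over those controls at 0.64, whereas Max at -0.44 and Mxi1 at -0.49 were not. Long genes were higher at Tc 2D, with a median of 0.59 over the 106 genes with over 15000 bases of exon, and against that median Mga stood at 0.32, not called. Mxi1 was at a CPM of 24.2, with -0.49 over WT and -0.68 over the ZHBTc4 controls.

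The depth scale bears on all values at Tc 2D. The CPM of that library summed to 638591, against 775050 to 798811 in the other libraries of its table. The parts of TMM and of the read total used for scaling in that sum were not told apart. Scaling by the reads on genes without TMM changes both. With CPM computed from the reads on genes without TMM, the median of all genes moved from -0.06 to 0.24, and 4756 genes were called higher and 2203 lower in place of 3218 and 3474. The same members were called with that scale, Mycn at -1.17, Mycl1 at -1.11, Mnt at 0.94 and Mga at 1.24. Myc then stood at 0.57, and Max at -0.19.

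Differentiation markers accompanied these changes. The 9 trophectoderm markers in the tables summed to 55.8 CPM (WT) and 458 CPM (Tc 2D), with Hand1 at a log2-fold-change of 5.63, while the pluripotency markers summed to 3680 and 484. The primitive endoderm markers summed to 243 CPM (WT) and 554 CPM (Tc 2D), while the fibroblast markers summed to 55.8 and 69.3, with 3 of 14 called higher (23.9% of all genes) and 5 lower (25.8%), a median of -0.41 and 25.1 CPM from Pdgfrb alone at Tc 2D. The fibroblast sum was 113 and 103 in the ZHBTc4 controls. There the trophectoderm markers summed to 68.8 and 66.3. The part of cell identity in the values of the members was not tested.

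linc1253 is a lincRNA of ES cells that the study placed downstream of Pontin and Oct4, and its own level was not analysed here. With limma on log2 of CPM plus 1, no gene of 13407 passed an adjusted p of 0.05 in linc1253 knockdown over control shRNA (0% called), and none of the members did. The study did call genes in this comparison, at a combined p under 0.05 and a cut on the median ratio. That threshold is unlike the adjusted p used here. At an unadjusted p under 0.05 there were 999 genes with limma and 1010 with edgeR, and DESeq2 called 50 genes at its adjusted p, none of them a member. Of the members, Myc and Mycl1 had an unadjusted p under 0.05 with limma, 1 higher against 3.70% of all genes and 1 lower against 3.75%.

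Myc had a CPM of 26.7 and 37.2 in the control libraries and 40.7 and 49.7 in the knockdown libraries. The ranges of the groups did not overlap. The log2-fold-change was 0.50 (SE 0.18, limma adjusted p = 0.632, unadjusted 0.0312), and the control libraries differed from each other by 0.47 on the same scale. Without control replicate 1 it was 0.27 and without control replicate 2 it was 0.73.

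Mycl1 had a CPM of 23.3 and 20.1 in the control libraries and 16.1 and 14.7 in the knockdown libraries, again without overlap. Its log2-fold-change was -0.47 (SE 0.13, limma adjusted p = 0.573, unadjusted 0.00994). Max, at 101 and 103 against 116 and 112, was the only other member whose groups did not overlap, with a log2-fold-change of 0.16 (SE 0.09). Across all 13407 genes, 38.0% had groups that did not overlap, so 3 of 7 members is close to that share.

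The other 4 members overlapped between the groups. Mycn had a CPM of 151 and 163 in the controls and 153 and 144 in the knockdown, with a log2-fold-change of -0.08 (95% interval -0.30 to 0.14). Mxi1 had -0.12 (-0.40 to 0.17), Mnt -0.16 (-0.50 to 0.18) and Mga -0.05 (-0.39 to 0.28). Each of these intervals holds 0 as well as changes of some size in either direction. No member differed by over 0.58 between the control libraries themselves, where 3.10% of all genes did.

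The share of Myc in the summed MYC level per kb was 16.0% and 20.1% in the control libraries and 22.9% and 27.9% in the knockdown libraries. The sum was 61.5 and 68.1 in the controls and 65.5 and 65.7 in the knockdown. Within each group the library numbered 2 had the higher Myc level, and in the knockdown group it also had more of the fibroblast markers, whose sum was 113 and 103 in the controls and 114 and 161 in the knockdown. Acta2 was at 0.28 and 3.31 in the controls and 0.18 and 17.7 in the knockdown. The part of such cells in these values was not tested.

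Mxd1, Mxd3 and Mxd4 are further MAX-binding repressors, and Mlx, Mlxip and Mlxipl form a parallel network that responds to glucose. At OHT 3D none of these 6 was called (6.01% of all genes higher, 5.88% lower), with log2-fold-changes from -0.17 to 0.35. At OHT 4D Mlxip was called lower at -0.72 (8.89% of all genes), with 8213 bases of exon, and Mxd1 (-0.17), Mxd3 (-0.03), Mxd4 (0.56), Mlx (0.18) and Mlxipl (-0.23) were not. At Tc 2D Mxd4 at 0.97 and Mlxipl at 2.64 were called higher (2 of 6, against 23.9% of all genes) and Mxd3 at -0.67 lower (against 25.8%), whereas Mxd1 at 0.51, Mlx at -0.44 and Mlxip at 0.07 were not. Over the ZHBTc4 controls Mxd4 was at 0.01, not called, and without TMM 3 of the 6 were called higher (4756 of 13449 genes) and 0 lower (2203 genes). In linc1253 knockdown Mlxipl had the lowest value, -0.50 with an unadjusted limma p of 0.0263, the 1 gene of the 6 under 0.05.

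Of 13 genes whose products act as MYC cofactors, Pontin included, 1 was called at OHT 3D, Ruvbl1 itself, lower at -2.54 (5.88% of all genes). Ruvbl2 (Reptin), the partner of Pontin in its hexamers, had 327 CPM (WT), 311 (OHT 3D) and 364 (OHT 4D) and was not called. At OHT 4D Ruvbl1 at -1.94 and Ep400, the ATPase of the TIP60 complex, at -0.73 were called lower (8.89% of all genes), and Trrap, its scaffold, was at -0.45. Ep400 and Trrap have 13971 and 15185 bases of exon, and neither was called at OHT 3D, at 0.21 and 0.35. Kat5, the acetyltransferase, was at -0.29 and -0.19.

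At Tc 2D, 6 of the 13 cofactors were called lower (25.8% of all genes) and 1 higher (23.9%), with a median of -0.38 against -0.06 over all genes. The lower ones were Actl6a at -1.32, Wdr5 at -1.27, Ruvbl1 at -1.21, Ruvbl2 at -0.95, Smarcb1 at -0.78 and Cdk9 at -0.63, and Zbtb17, which encodes the MYC partner MIZ1, was higher at 0.84. Without TMM, 4 were called lower (2203 of 13449 genes) and 1 higher (4756 genes), and over the ZHBTc4 controls 8 were lower (30.1% of all genes) and 0 higher, with Zbtb17 in the other direction at -0.29. Dmap1 (-0.36), Kat2a (-0.38), Ccnt1 (-0.34), Kat5 (-0.38), Ep400 (0.11) and Trrap (0.24) were not called. Ruvbl1 was thus lower in the single Tc 2D library as well, at a CPM of 85.0 and at -1.04 over the ZHBTc4 controls. The study, in contrast, reported no significant difference of Pontin mRNA or protein after Oct4 depletion, by quantitative RT-PCR and immunoblot. The gap between these results was not tested.

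Genes that MYC activates were followed as a list of 36, all expressed, which covers ribosome biogenesis, nucleotide synthesis, translation and chaperones. At OHT 3D 1 was called higher (6.01% of all genes) and 1 lower (5.88%), with a median of 0.01 against -0.02 over all genes. At OHT 4D 2 were called higher (6.48%) and 0 lower (8.89%), with a median of 0.15 against -0.00. Ccnd2 (cyclin D2) was the highest at both time points, with 7.20 CPM (WT), 37.9 (OHT 3D) and 23.8 (OHT 4D) and log2-fold-changes of 2.25 and 1.60. Nme1 at 0.62 was the other one called higher at OHT 4D. Ldha, lactate dehydrogenase, was called lower at OHT 3D at -0.64 and stood at -0.32 at OHT 4D. Short genes as a class were higher at OHT 4D, with a median of 0.21 up to 2000 bases of exon and 0.06 from 2000 to 4000.

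At Tc 2D, 28 of the 36 were called lower (25.8% of all genes) and 0 higher, and the median was -0.77 against -0.06 over all genes. The 2 lowest were Ldha, which went from 921 to 188 CPM (-2.29), and Ccnd2 (-2.02). Short genes were lower at Tc 2D as a class, and most of the 36 have under 4000 bases of exon. Of genes averaging 5 CPM or more, those with up to 2000 bases had a median of -0.50, with 45.7% called lower. Those with 2000 to 4000 bases had -0.19, with 30.2%. The part of transcript length in the values of this list was not tested. Over the ZHBTc4 controls 31 of the 36 were called lower (30.1% of all genes) and the median of the list was -1.15 against -0.17. Without TMM 12 of the 36 were called lower, as were 2203 of all 13449 genes, and the median was -0.45 against 0.24 over all genes, so the list stayed below the median of all genes on each scale while the count depended on the scale. In linc1253 knockdown the median was 0.03, and Ccnd2 had a log2-fold-change of 0.75 and an unadjusted limma p of 0.0194.

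**Figure D4:**
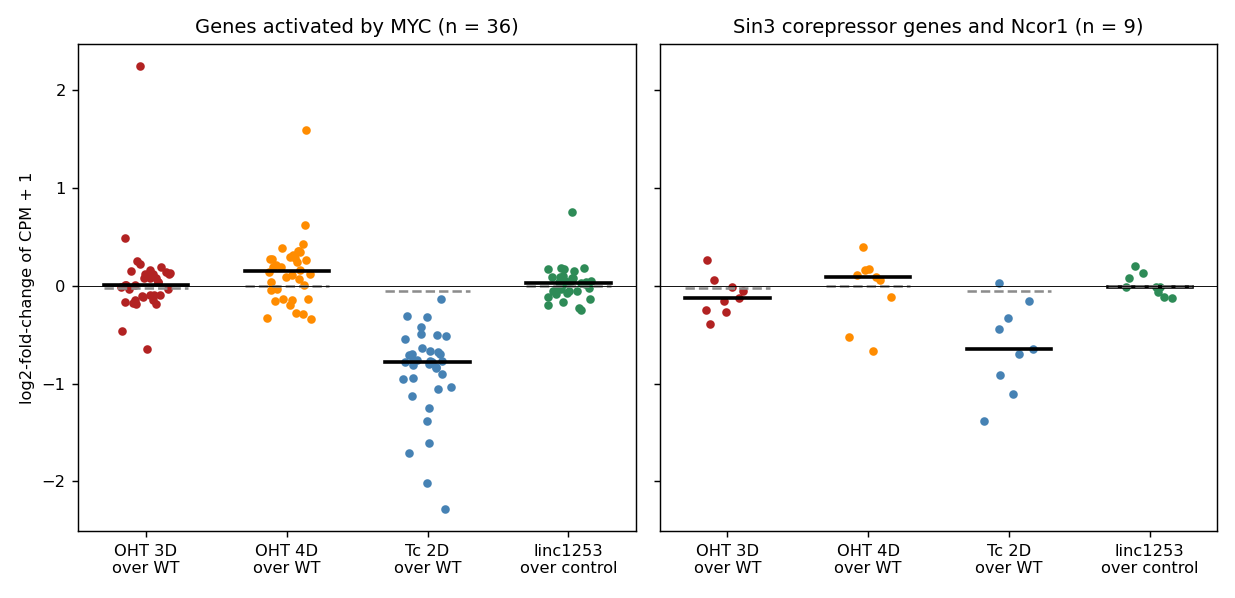
Log2-fold-change of CPM plus 1 (vertical axis) of each of 36 genes activated by MYC (left) and of 9 corepressor genes (right), 8 of the Sin3 complex that MXI1 and MNT recruit and Ncor1, in 4 comparisons, 1 point per gene, with the median of the list as a black line and that of all tested genes as a dashed grey line. At Tc 2D the medians are -0.77 and -0.65, and at both OHT time points they lie between -0.12 and 0.15.

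Genes that MYC represses gave no single direction. Of 8, 2 were called higher and 3 lower at OHT 3D, 2 higher and 1 lower at OHT 4D, and 3 higher and 2 lower at Tc 2D. Of all genes 6.01% and 5.88%, 6.48% and 8.89%, and 23.9% and 25.8% were called in these directions. Ndrg2 was lower in all 3, at -1.46, -0.78 and -2.97, and Cdkn1b, the cell cycle inhibitor p27, was lower at OHT 3D at -0.80. Gata6, an endoderm factor, is on this list and also among the primitive endoderm markers.

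Enzymes that control MYC protein stability included Usp28, a deubiquitinase, which had 209.7 CPM (WT), 131 (OHT 3D), 99.8 (OHT 4D) and 44.9 (Tc 2D). It was called lower in each, at -0.68, -1.06 and -2.20. Huwe1, a ubiquitin ligase with 23509 bases of exon, was called lower at OHT 4D at -1.09 and not at OHT 3D at -0.02. Aurka, which stabilizes MYCN protein, was lower at Tc 2D at -1.06. Over the ZHBTc4 controls, at 90.3 and 133 CPM, Usp28 was at -1.27 for Tc 2D. Of the 7 genes of this list, 0 were called higher and 1 lower at OHT 3D (6.01% and 5.88% of all genes), 0 higher and 2 lower at OHT 4D (6.48% and 8.89%), and 1 higher and 3 lower at Tc 2D (23.9% and 25.8%).

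Of 9 corepressor genes, 8 of the Sin3 complex and Ncor1, which encodes the core of the separate NCoR complex, 0 were called at OHT 3D (6.01% of all genes higher, 5.88% lower), and 5 of 9 were called lower at Tc 2D, where 25.8% of all genes were, with Hdac1 at -1.39 and Sap30 at -1.10. That count was 3 without TMM, where 2203 of 13449 genes were lower, and 7 over the ZHBTc4 controls, where 30.1% of all genes were lower. At OHT 4D Ncor1, with 12820 bases of exon, was the 1 called lower, at -0.66 (8.89% of all genes), and 0 of the 8 Sin3 genes were. Of 10 partners of MGA in its Polycomb complex, 0 were called at OHT 3D (6.01% of all genes higher, 5.88% lower) and 1 at OHT 4D, Yaf2, higher at 0.61 (6.48%). At Tc 2D, 3 were higher, with E2f6 at 1.38, and 4 were lower, with L3mbtl2 at -1.44, near the shares of all genes of 23.9% and 25.8%.

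Germ cell genes that MAX and MGA silence in ES cells were followed as 14 genes, of which 13 passed the filter in the first table. At OHT 4D 0 were called higher (6.48% of all genes) and 4 lower (8.89%), among them Smc1b at -1.84 and Stag3 at -1.18. At OHT 3D 0 were higher (6.01%) and 3 lower (5.88%). At Tc 2D 9 were called higher (23.9%) and 2 lower (25.8%), with Taf7l at 2.72 and Mov10l1 at 2.49. Over the ZHBTc4 controls 5 were higher (17.9% of all genes) and 4 lower (30.1%) of 14, and Taf7l was at 0.43 and Mov10l1 at -0.23. This count thus depended on the control, and the line, the infection and the table of those controls differ together from WT. In linc1253 knockdown 3 of the 14 germ cell genes and 2 of the 8 genes repressed by MYC were lower at an unadjusted limma p under 0.05, as were 3.75% of all genes, and 0 were higher. None of the 13 cofactors, the 7 genes of MYC protein stability, the 9 corepressor genes or the 10 partners of MGA reached that p in either direction.

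Pontin occupancy at the start sites of the members was read from the ChIP libraries, with 40729076 reads for Pontin and 17185883 for GFP. The window of the study was used, 2.5 kb before the start site and 500 b after it, with reads scaled by library size. With 1 library on each side there is no replicate check, and the exact binomial 95% intervals cover counting error only. Both mates of a fragment were counted as separate reads, so the intervals are too narrow. A log2 ratio of Pontin to GFP above 1 was found at 3 of the 7 members, Mycn, Max and Mxi1, and at 14.5% of 21186 promoters. The median of the members was 0.97 and that of all promoters 0.34.

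Mycn had 105 Pontin and 22 GFP reads, a log2 ratio of 1.01 (0.34 to 1.74). Max had the same pair of counts at its own start site on the same chromosome, and thus the same ratio. Mxi1 had 73 and 13 reads, a ratio of 1.24 (0.38 to 2.22), and Mnt 125 and 27, a ratio of 0.97 (0.36 to 1.62). These 4 promoters lay at the percentiles 85.8, 85.8, 92.0 and 84.3 of all promoters, and their intervals left out 0. All 4 intervals hold 0.45, the median of the promoters of expressed genes, and the lower bound of Mycn and Max, 0.34, is at the median of all promoters. By ChIP with quantitative PCR, the study found no Pontin recruitment at the Oct4-binding region of Mycn. Whether that region lies in the window used here was not examined.

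Myc had 79 and 29 reads, a ratio of 0.20 (-0.43 to 0.87), Mga 72 and 25, a ratio of 0.28 (-0.39 to 1.00), and Mycl1 72 and 30, a ratio of 0.02 (-0.61 to 0.68). The intervals of these 3 hold both 0 and the median of all promoters. Among the members, Myc and Mycl1, which had the largest changes at OHT 3D, thus had ratios below the median of all promoters in this window. Within 1 kb of the start site Myc had 0.58 and Mycl1 0.64. Both were above the median of all promoters there, 0.53, and below that of expressed genes, 0.67. The intervals of Myc and Mycn overlap each other, and the ChIP was made in the other ES line.

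Single 500 b bins near the start site were read after their heights were seen. In the 500 b before the start site of Mycn, which hold the promoter printed above, there were 30 Pontin reads and 3 GFP reads, and in the 500 b after the start site of Mnt there were 42 and 4. Mxi1 had 18 and 1 before its start site, and Mga, whose ratio over the whole window was lower, had 24 and 2 in the first bin after its own and 25 and 3 in the next. Single bins were noisy, and the 500 b bin that begins at -3500 b from the start site of Mnt held 3 Pontin and 18 GFP reads. The means over expressed genes were 18.2 Pontin and 4.89 GFP reads before the start site and 20.1 and 5.37 after it. At the start sites of shorter Mxi1 transcripts, 18907 and 19940 b downstream, the ratio was -0.15 and 0.18, against 1.24 at the first one. With 1 kb on either side of the start site, the log2 ratio was 2.40 for Mycn, 1.64 for Mnt and 1.59 for Mxi1, but 0.66 for Max. When reads at the same position and strand were counted once, Mxi1 at 1.03 was the only member above 1, with Mnt at 0.86, Max at 0.82 and Mycn at 0.79. Scaled by the median ratio over all promoters, no member stood above 1, with Mxi1 highest at 0.90 and Mycn and Max at 0.67.

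The Pontin over GFP ratio moved with base composition. The median log2 ratio was 0.06 over promoters with up to 45% GC in the 250 bases before the start site, 0.26 up to 55%, 0.42 up to 65% and 0.51 above it. All members but Mnt fell between 55% and 65%, where 16.0% of promoters had a ratio above 1, and Mnt fell in the highest class, where 19.7% did. The part of base composition in the values of the members was not tested.

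**Figure D5:**
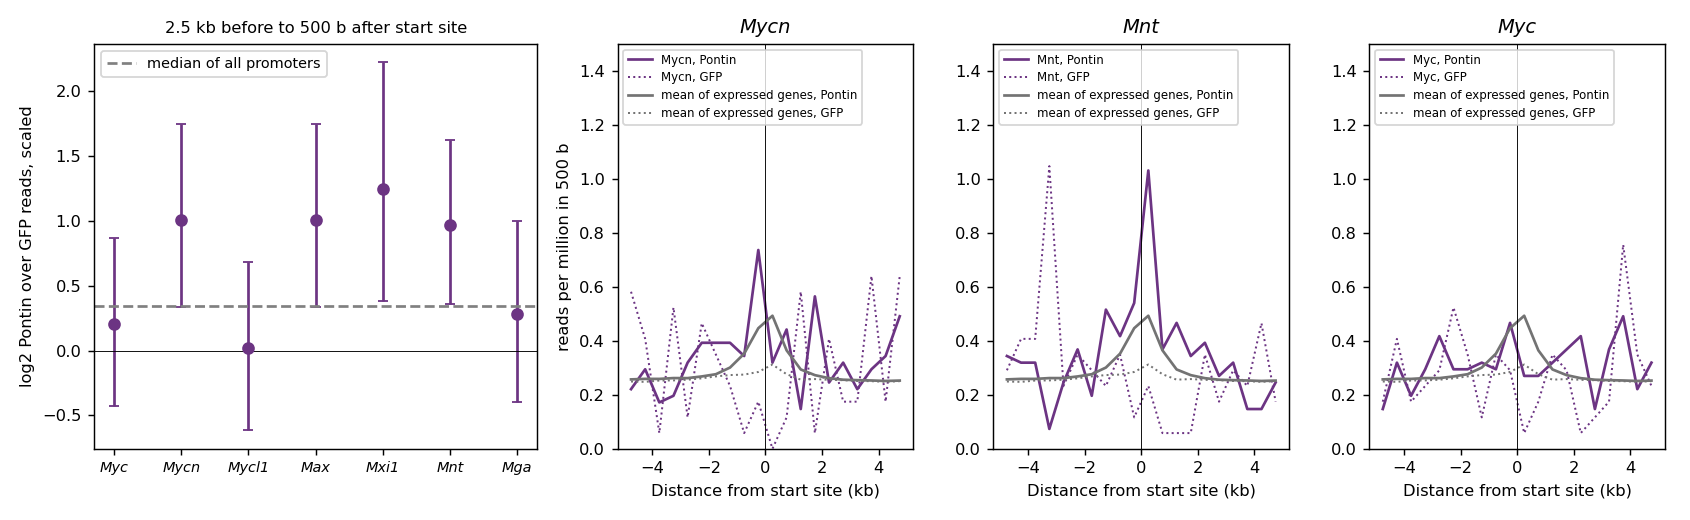
Left: log2 ratio of Pontin over GFP ChIP reads, scaled by library size, at each member (vertical axis, with exact binomial 95% intervals), and the median of all promoters as a dashed line at 0.34. Right 3 panels: reads in 500 b bins scaled by library size (vertical axis) against the distance from the start site in kb for Mycn, Mnt and Myc, Pontin as solid and GFP as dotted lines, with the means of expressed genes in grey. Pontin reads peak just before the start site of Mycn and just after that of Mnt.

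The genes whose changes were most like those of the MYC genes were found from the root-mean-square difference over 4 log2-fold-changes, those at OHT 3D, OHT 4D and Tc 2D over WT and that of linc1253 knockdown over control, over the 9957 genes that averaged 5 CPM or more in both tables. The first 3 of the 4 share the WT library. For Myc they were Prl8a1 (0.16), Timp3 (0.20) and Pdrg1 (0.21). For Mycn they were Gnl3l (0.05), Pola1 (0.07) and Adamts14 (0.08), and for Mycl1 they were Phgdh (0.08), Glipr2 (0.12) and Radil (0.12). Phgdh, the first enzyme of serine synthesis, had log2-fold-changes of -1.13, -0.51, -1.38 and -0.55, next to -0.98, -0.54, -1.38 and -0.47 for Mycl1. These genes were chosen for their likeness, and their values are a description.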

How the data were processed

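The members and gene lists were chosen with earlier results of these data known. For mRNA, the authors aligned reads to NCBIM37 with TopHat, counted them with HTSeq and deposited CPM after TMM in edgeR, in 2 tables normalized separately. All CPM (100%) were whole reads within 0.01 read. The ChIP-seq files that the authors deposited, made with Bowtie2, list each read with a mapping quality score, and both mates were counted as separate reads. Scores started at 6 in the Pontin file and at 5 in the GFP file.

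Symbols and exon lengths came from the NCBIM37 annotation (22337 of 22713 IDs matched), and promoter sequences from the NCBIM37 genome. The filter kept genes that exceeded 1 CPM in any of the 4 libraries of a table, and 1 was added before the log2. linc1253 knockdown was tested with limma 3.58.1 with trend and Benjamini-Hochberg adjustment, and as alternatives with edgeR 4.0.16 and DESeq2 1.42.0 on the recovered reads, in R 4.3.3. Python 3.11.15 was used for the rest. On simulated data with 200 of 13407 genes changed 4-fold, each of the 3 tools recovered 100%. That is a log2 change of 2, far larger than those of Myc (0.50) and Mycl1 (-0.47) in the knockdown. The simulated libraries also shared no replicate effect. The recovery thus does not measure how often changes as small as those of the members would be found.

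Besides the members, all genes of the MAX/MLX and cofactor lists were named, and of each other list per comparison at most the 2 largest rises and 2 largest falls with a mean CPM of at least 5. Exceptions, named after their values were seen, are Gata6, Lum, Dcn, Col3a1, Postn, Sox17, Timp2, Cdx2, Zfp42, Pou5f1 outside Tc 2D, and Taf7l and Mov10l1 over the ZHBTc4 controls. Intervals cover counting error only, and the reads carry no molecular identifiers, except in linc1253 knockdown, where they come from limma on 2 libraries on each side.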

Additional observations from a re-analysis of the deposited data

Results flagged for a closer look

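The OHT time points differed for Mga, which lay on either side of WT. Its log2-fold-change was 0.08 at OHT 3D, not called and close to the median of the genes with over 15000 bases of exon (0.09), and -1.22 at OHT 4D, a difference of -1.31 between the libraries. With 1 library at each time point the difference was not tested beyond the counting of reads.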

How the results depend on the processing

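The members called numbered 3 (OHT 3D), 2 (OHT 4D) and 4 (Tc 2D). It did not change with a pseudocount of 0.5 or 3, no filter, a CPM filter of 5 or median-ratio scaling. An absolute log2-fold-change above 1 left 1 member for OHT 3D (Myc), 1 for OHT 4D (Mga) and 2 for Tc 2D (Mycn, Mycl1). With the ZHBTc4 controls 5 were called at Tc 2D, and 4 with all libraries on 1 median-ratio scale, where Mga was called and Max and Mxi1 were not. Alternatives chosen after seeing the data were the centring on the exon length class, which removed both calls of Mga, at -0.58 (OHT 4D) and 0.32 (Tc 2D), and added Mycn for OHT 4D at -0.59, and CPM without TMM, which kept the same members. For linc1253, 0 members were called by limma, edgeR and DESeq2, and 0 in each fit without 1 library (range 0 to 0), while 2 had an unadjusted p under 0.05. The numbers of the shRNA replicates share no stated culture or day. With the replicate number as a block, limma called 2 members, Myc and Mycl1, and 1960 genes in place of 0, and the deviations of same-numbered libraries correlated at 0.67 over genes. The median ChIP ratio of 0.97 was 0.79 with 1 read per position and strand, 0.63 with median scaling and 0.82 within 1 kb, against medians of all promoters of 0.34, 0.29, 0 and 0.53 and of expressed ones of 0.45, 0.39, 0.11 and 0.67, so the excess within 1 kb was smaller. Of 273 recomputed values of single members, 253 kept their direction and side of the threshold and 0 reversed a call. Part of this tally was fixed in advance, since a filter that a member passes leaves its log2-fold-change as it is. A reversal also required a call in the main setting, and in linc1253 knockdown no member had one. The single libraries and the ChIP depth of 72 to 125 Pontin reads per promoter limit the rest.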
